A study of Mus musculus with 24 samples.

Results

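The cyclins, the cyclin-dependent kinases (CDKs) and the CDK inhibitors of the Cip/Kip and Ink4 families were chosen by gene symbol, which gave 52 of the 21887 protein-coding genes of the mouse RefSeq table (GRCm38.p6, the assembly of mm10). The mark mapped over the transcriptome was m6A, a methyl group at position N6 of adenosine in RNA, by immunoprecipitating methylated RNA fragments from very few cells and sequencing them (picoMeRIP-seq). In order of development, the 6 stages were the germinal vesicle (GV) oocyte, the metaphase II (MII) oocyte, the zygote, the 2-cell embryo, the 8-cell embryo and the blastocyst, all C57BL/6N, with 2 biological replicates each according to the series' design. Each immunoprecipitated (IP) library has 1 list of peaks, called by the authors against its own input, which makes 12 lists.

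All samples came from 8-week-old females given 5 units of pregnant mare serum gonadotropin, so the oocytes and embryos are those of hormone-stimulated cycles. GV oocytes were taken 48 h later, held in a phosphodiesterase inhibitor, and restricted to those with a surrounded nucleolus. MII oocytes were taken 14 h after chorionic gonadotropin. After the same hormone, embryos from matings were flushed: zygotes at 27 to 28 h, 2-cell embryos at 39 to 43 h, 8-cell embryos at 68 to 70 h and blastocysts at 92 to 94 h. Every library is a pool of 100 cells or embryos, except for 49 in each GV library, 110 in MII oocyte 2 and 51 in 8-cell 2. Stages were grouped in 2 ways, as embryonic (2-cell, 8-cell, blastocyst; 6 libraries) against maternal (GV, MII, zygote; 6 libraries), and as late (8-cell and blastocyst; 4 libraries) against earlier (the 8 others).

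Cyclins bind and activate CDKs, and their inhibitors hold the complexes back. One branch of the family (A-, B-, D- and E-type cyclins with Cdk1, Cdk2, Cdk4 and Cdk6) drives the cell cycle, while another (cyclins C, H, K, L and T with Cdk7, Cdk8, Cdk9, Cdk11b, Cdk12, Cdk13 and Cdk19) phosphorylates RNA polymerase II and other factors of transcription and RNA processing. Fully grown oocytes are arrested in meiosis and transcriptionally silent, meiotic maturation and the first cleavage run on stored maternal RNA, and the embryo then starts its own transcription, in the mouse mainly at the 2-cell stage. m6A on a messenger RNA can alter its stability and translation through reader proteins.

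A gene was counted as marked in a library when at least 1 peak overlapped its gene body, introns included, by at least 1 bp. Of the 52 genes, 39 were marked in at least 1 library (75.0%), against 9903 of the 21887 protein-coding genes (45.2%). The 13 with no peak in any library were the A- and B-type cyclin genes Ccna1, Ccnb1 and Ccnb2, Ccnf (an F-box protein), the D-type cyclin genes Ccnd1 and Ccnd2, the kinases Cdk4, Cdk6 and Cdk16, the Ink4 inhibitors Cdkn2a, Cdkn2b and Cdkn2d, and Ccng2. A gene with no peak can lack the mark or have too little RNA for a peak to be called. The 2 cannot be told apart here, because the lists hold no read counts and the inputs were not analysed here, and in pools of embryos fewer cells of a type and less RNA per cell cannot be told apart either.

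The share of marked genes was not even across the roles. All 14 genes of the transcription branch had a peak, with 203 of the 314 peaks in the family. Most of the 203 fell in Cdk13 (54), Cdk12 (39), Ccnt2 (30), Cdk11b (26) and Ccnt1 (19), where the same sites are counted once per library. In contrast, 3 of the 14 genes were marked in 1 library only. Of the 8 genes of mitosis and meiosis 4 had one (19 peaks), as did 4 of the 8 genes of G1 and S phase entry (20 peaks) and 4 of the 7 inhibitors (16 peaks). Of the other 15 genes 13 had a peak (56 peaks). Long genes are marked more often, and the transcription branch had a median gene length of 29860 bp, against 16868 bp for the whole family and 17169 bp for all protein-coding genes. Within each class of length the family as a whole had the larger share: 13 of 19 genes of up to 10 kb (68.4%) against 25.4% of all genes, 12 of 18 of over 10 to 30 kb (66.7%) against 47.9%, and 14 of 15 over 30 kb (93.3%) against 63.9%. The classes were not split by role, and the part of gene length in the difference between roles was not tested.

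**Figure D1:**
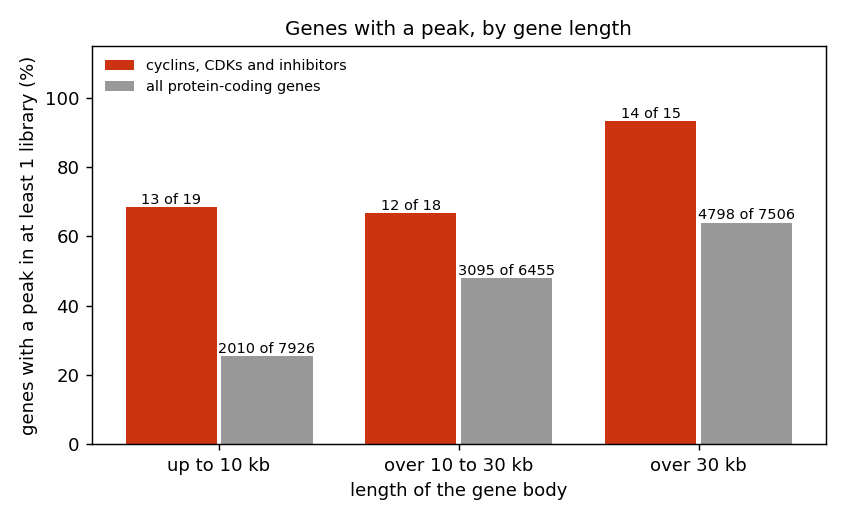
Percent of genes with a peak in at least 1 of the 12 libraries (vertical axis), in 3 classes of gene length, for the cyclin, CDK and inhibitor genes (left bars) and all protein-coding genes (right bars). The left bar is the taller in each class, 68.4% against 25.4% among genes of up to 10 kb, with the numbers of genes printed over the bars.

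**Figure D2:**
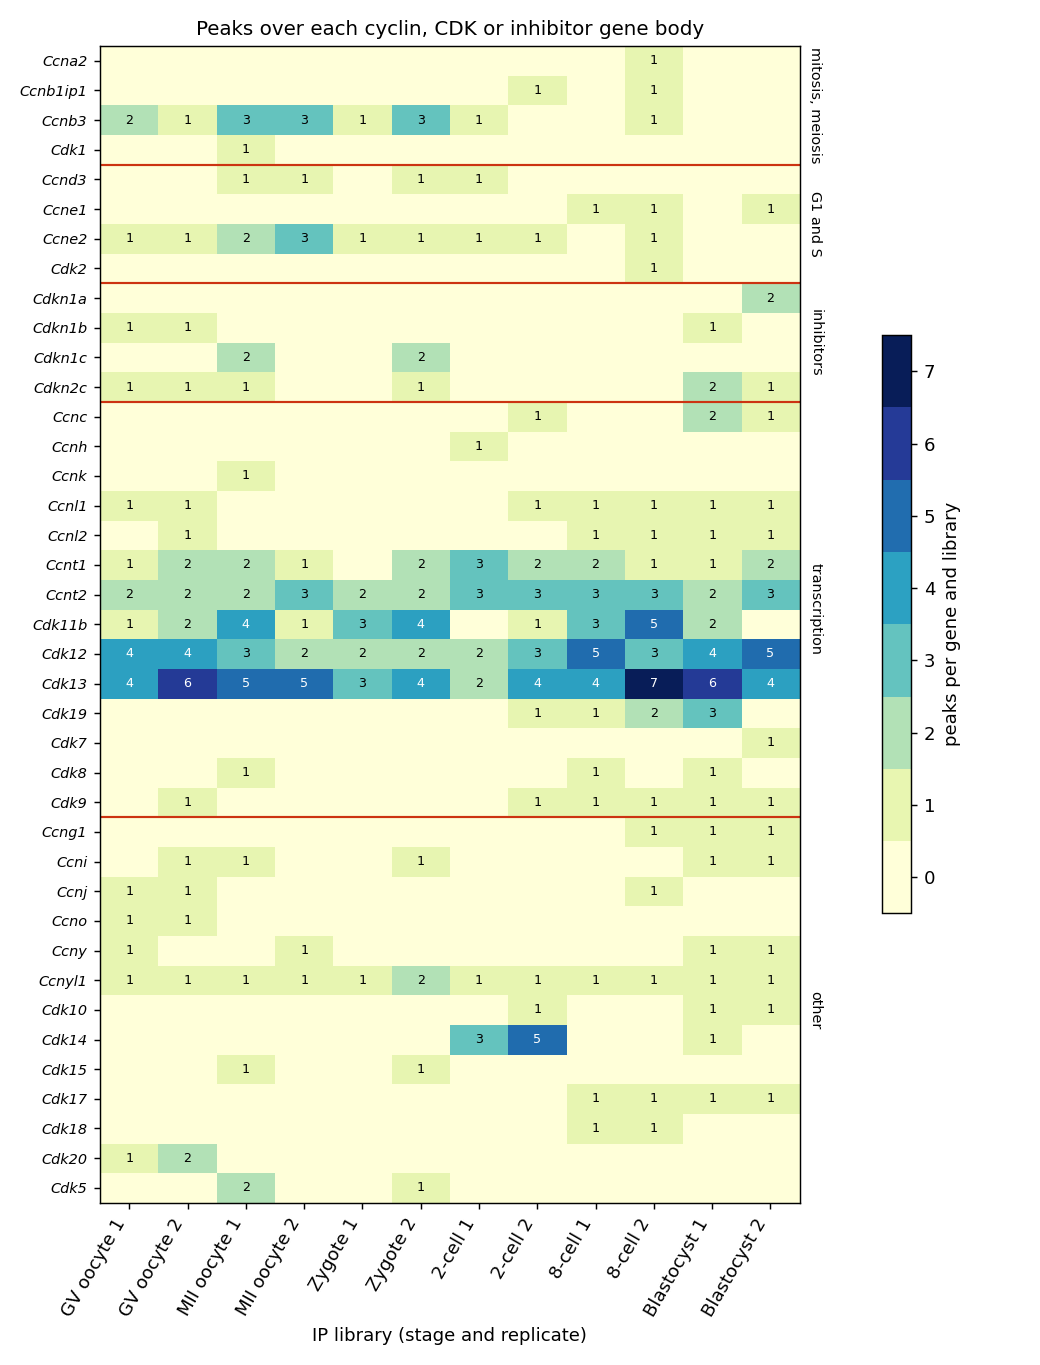
Number of peaks over each of the 39 marked genes (rows, by role) in each of the 12 IP libraries (columns, in the order of development). Ccnt2, Cdk12, Cdk13 and Ccnyl1 have a peak in every column, while most other rows have peaks in a few columns only.

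Of the 4 genes marked in every library, 3 act in transcription elongation. Ccnt2, Cdk12, Cdk13 and Ccnyl1 were marked in all 12 libraries, 4 of the 39 marked genes (10.3%) against 828 of the 9903 marked genes of the genome (8.36%). Ccnt2 encodes a cyclin T, a partner of Cdk9 in the elongation factor P-TEFb. It had 2 peaks in each GV library, 2 and 3 in MII oocytes, 2 in each zygote library, 3 in each 2-cell and each 8-cell library, and 2 and 3 in blastocysts. Its relative Ccnt1 was marked in 11 libraries, all but zygote 1, with 1 to 3 peaks in each.

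Cdk12 and Cdk13 are the kinases that pair with cyclin K on RNA polymerase II during elongation. Cdk12 had 4 peaks in each GV library, 3 and 2 in MII oocytes, 2 in each zygote library, 2 and 3 in 2-cell embryos, 5 and 3 in 8-cell embryos, and 4 and 5 in blastocysts. Cdk13 had the most peaks of the family, 54 in all, with 4 and 6 in GV oocytes, 5 and 5 in MII oocytes, 3 and 4 in zygotes, 2 and 4 in 2-cell embryos, 4 and 7 in 8-cell embryos, and 6 and 4 in blastocysts. The counts overlapped between all neighbouring stages except MII against GV oocytes in Cdk12 and zygotes against MII oocytes in Cdk13. Ccnyl1, a relative of cyclin Y needed in mouse for sperm development, had 1 peak in every library and a second one in zygote 2.

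Peaks of all libraries that overlap were then merged to sites, which gave 80 sites in the 39 genes, of which 31 were found in 1 library only (38.8%, against 35.6% of the 22629 sites of all protein-coding genes) and 6 in all 12 (7.5%, against 3.04%). Those 6 sites lie in the 4 genes above. The site of Ccnt2 (chr1:127802234-127804026) has its midpoint 1707 bp from the 3′ end of the gene and holds several peaks, so the highest summit moved by up to 1070 bp between libraries. The site of Ccnyl1 (chr1:64723347-64724137) also lies close to the 3′ end, 1904 bp from it, and its best summit stayed within 55 bp. For comparison, the summit range over the 12 libraries had a median of 149 bp (quartiles 43.8 and 444 bp) among the 688 sites of the genome found in all libraries.

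Both invariant sites of Cdk12 lie toward the start of a gene of 78669 bp, at chr11:98203432-98204142 (midpoint 1354 bp from the 5′ end) and chr11:98210311-98210910 (8177 bp from it). The second one was among the strongest peaks of every list by q-value, between the first 1.06% of the list in 2-cell 2 and the first 7.58% in blastocyst 2, and in GV oocyte 2 it ranked 201 of 11959 peaks with a −log10 q-value of 571. The authors' fold enrichment there ran between 6.16 in MII oocyte 1 and 21.0 in blastocyst 1, and the best summits lay within 54 bp of each other. The first of the 2 sites was enriched 2.65-fold to 5.12-fold and its summits lay within 96 bp. Fold enrichments are the authors' and come from lists of different length, so they are not compared between stages.

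A further Cdk12 site at chr11:98249638-98250555, 47663 bp from the 5′ end, came and went. It was found in both GV libraries, in no MII or zygote library, in 2-cell 2, and in all 4 libraries of 8-cell embryos and blastocysts. Cdk12 is thus counted as marked at every stage while 1 of its sites is absent from 5 consecutive libraries. With sites tested one by one this difference was not called: 5 of 6 embryonic against 2 of 6 maternal libraries, adjusted p = 0.343 by Fisher's exact test.

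The 2 invariant sites of Cdk13 lie at chr13:17772401-17773049, 32487 bp from the 5′ end, and at chr13:17717674-17718446, 6384 bp from the 3′ end of a gene of 93537 bp. The best summits stayed within 69 bp at the first and within 99 bp at the second, and the authors' enrichment ran from 3.49 to 19.8 and from 4.05 to 15.5. A neighbour of the second, at chr13:17718655-17719051, was found in 11 libraries, all but 2-cell 1.

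**Figure D3:**
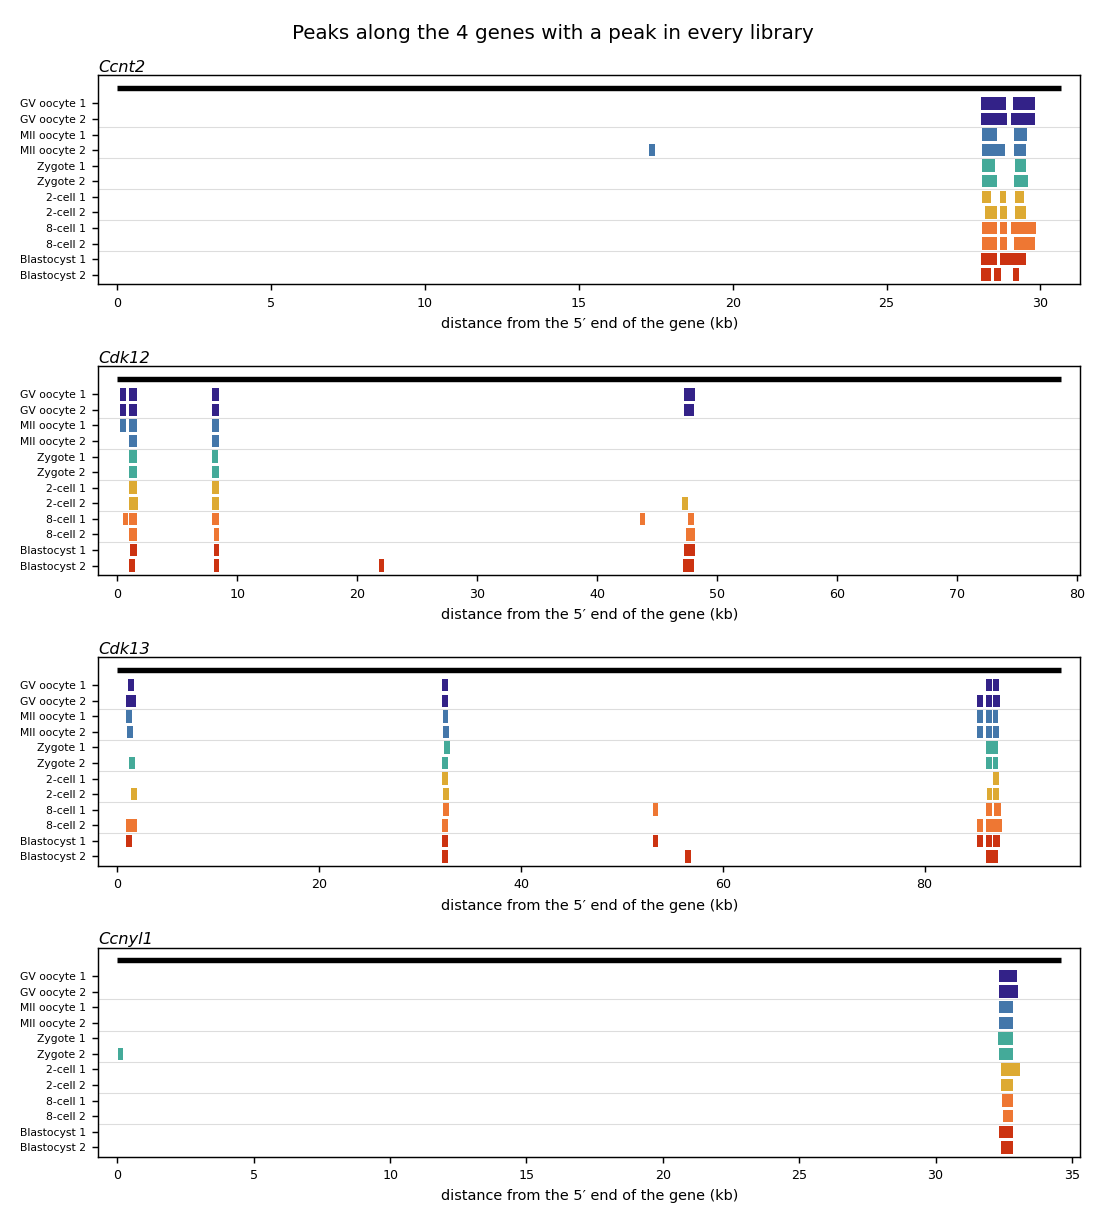
Peaks (coloured bars, 1 colour per stage) in each of the 12 libraries (rows) along Ccnt2, Cdk12, Cdk13 and Ccnyl1, as distance from the 5′ end of the gene in kb (black bar: gene body); peaks narrower than 0.6% of the gene length are drawn at that width. Columns of bars that run through all 12 rows are the 6 invariant sites, and the Cdk12 column at the right is missing in the MII and zygote rows.

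Start windows of RefSeq (250 bases before to 50 after a start, GRCm38.p6) were at hand for 42 of the 52 genes, and 4 of them (9.52%) had a peak over one: Ccnt1, Ccnyl1, Cdk12 and Cdkn2c. The share among all 17492 protein-coding genes with such a window was 5.37%. The Ccnt1 peak, in blastocyst 2 only, does not touch the gene body, and the Ccnyl1 peak was found in zygote 2 only. Stretches of 30 bases under the peaks of Cdk12 and Cdkn2c, the 2 found in 4 libraries each, are shown 5′ to 3′ on the strand of the gene. The Cdk12 stretch (chr11:98203097-98203126, plus strand) lies inside the gene body, but before the RefSeq start of its window, at positions -208 to -179. It is under a peak of GV oocyte 1, GV oocyte 2 and 8-cell 1, while that of MII oocyte 1 ends just before it. These 4 peaks are weak, at 64.8% to 93.8% of their lists by q-value. The capitals in the Cdk12 stretch mark GGAC, the most frequent core of the m6A consensus. The Cdkn2c stretch (chr4:109666707-109666736, minus strand) covers bases 21 to 50 after the start, and its capitals mark the 25 bases under a peak in at least 1 library.
Cdk12: ggccgtgaggggcGGACtcgagcagctccc
Cdkn2c: tctgcCGTTAAAATGGGGGCGGGTTTTTCA
GGAC was searched for on both strands. It is common: 65.6% of all 32851 windows hold it on the strand of the gene and 87.7% on either strand, as do 43 of the 47 windows of the family. A match is a description of the letters and not a modified base.

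The number of family genes marked was 15 and 17 in GV oocytes, 17 and 10 in MII oocytes, 7 and 14 in zygotes, 10 and 14 in 2-cell embryos, 14 and 20 in 8-cell embryos, and 20 and 18 in blastocysts. The zygote 1 library had the fewest, and also the shortest list of all (6914 peaks, against up to 11959 in GV oocyte 2). The 6 embryonic libraries averaged 16.0 ± 4.0 and the 6 maternal ones 13.3 ± 4.03 marked genes (SD), a difference smaller than the SD of either group. The 4 late libraries averaged 18.0 ± 2.83 and the 8 earlier ones 13.0 ± 3.63 (SD), and their ranges of 14 to 20 and 7 to 17 overlapped. Among the genes with a peak anywhere, late libraries marked 46.2% of the family and 48.9% of all genes on average, and earlier libraries 33.3% and 42.2%. By the same measure the embryonic libraries marked 41.0% of the family and 45.6% of all genes on average, and the maternal libraries 34.2% and 43.3%.

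**Figure D4:**
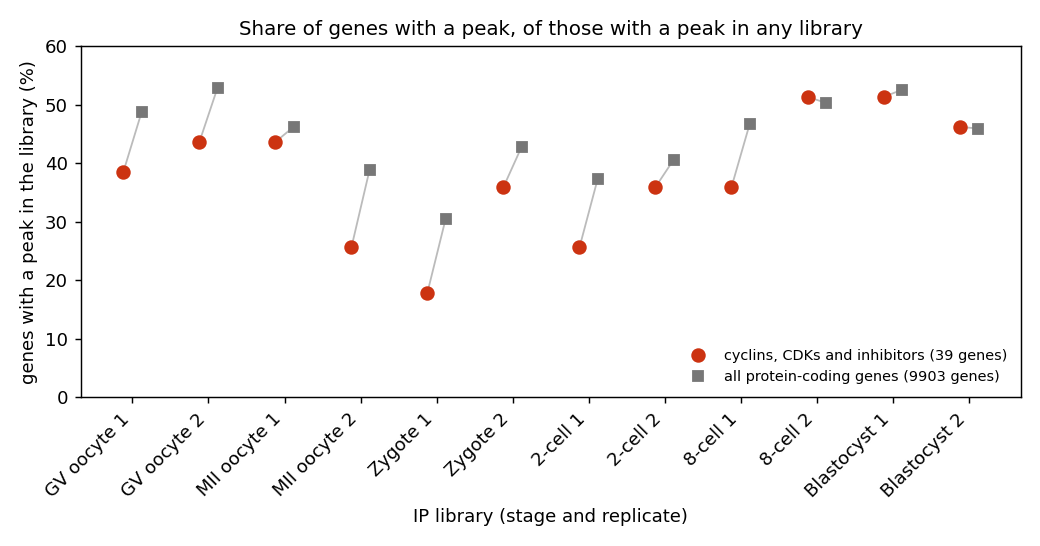
Percent of genes marked in each library, of those marked in at least 1 library, for the family (circles, 39 genes) and for all protein-coding genes (squares, 9903 genes). The circles run from 17.9% in zygote 1 to 51.3% in 8-cell 2 and blastocyst 1, and lie below the square in 10 of the 12 libraries.

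Replicates of a stage often disagreed on single genes. In GV oocytes 14 of the 18 family genes marked in either library were marked in both (77.8%, against 82.6% of all genes). That share was 50.0% in MII oocytes (against 72.5%), 50.0% in zygotes (62.0%), 41.2% in 2-cell embryos (57.5%), 61.9% in 8-cell embryos (69.1%) and 65.2% in blastocysts (61.0%). A gene seen in 1 library of a stage is for this reason not taken as a change.

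Between the phases, no family gene was called. Fisher's exact test was run per gene on the number of marked libraries, 6 embryonic against 6 maternal, with Benjamini-Hochberg adjustment at 0.05 over the 2310 genes whose total (5 to 7 marked libraries) can reach an unadjusted p of 0.05. Only 5 family genes could be tested: Ccni, Ccnl1, Ccnl2, Cdk9 and Cdkn2c. None was called, and none had an unadjusted p under 0.05, whereas 21.6% of all tested genes were called higher in embryonic libraries and 28.0% higher in maternal ones. The difference in marked libraries, embryonic minus maternal, had a median of 3.0 over the 5 genes and 0.0 over all tested genes. The count of 0 rests on few genes and on the setting: when each of the 12 libraries was left out in turn it ran from 0 to 4, with 4 called without 2-cell 1 (Cdk9, Cdk17 and Cdk19 higher in embryonic libraries, Ccnb3 higher in maternal ones).

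Among the 5 genes that could be tested, the lowest p-values were those of 3 genes of the transcription branch. A further 3 genes outside the test, marked in too few or too many libraries to reach 0.05, had a lower unadjusted exact p, 0.0606: Ccnb3, Cdk17 and Cdk19. Cdk9, the kinase of P-TEFb, was marked in 5 of 6 embryonic libraries (2-cell 2, both 8-cell and both blastocyst libraries) and 1 of 6 maternal ones (GV oocyte 2), adjusted p = 0.143 by Fisher's exact test. Its peaks all fall in 1 site, chr2:32707494-32708343. Ccnl1 and Ccnl2 encode the cyclins L, partners of Cdk11b that act in splicing. Ccnl1 was marked in 5 of 6 embryonic and 2 of 6 maternal libraries, Ccnl2 in 4 of 6 and 1 of 6, each with an adjusted p of 0.339 by the same exact test. The Ccnl1 peak of blastocyst 2 is at another site, chr3:65947808-65948096. Its main site, chr3:65946202-65947105, was found in 4 of 6 embryonic and 2 of 6 maternal libraries (adjusted p = 0.704, Fisher's exact test). For Cdk9, Ccnl1 and Ccnl2 the maternal marks were all in GV oocytes. With equal numbers of peaks per library Ccnl1 and Cdk9 were called higher in embryonic libraries, both with an adjusted p of 0.0287 by the exact test. Other settings differed. The share of marked libraries, embryonic minus maternal, was 50.0% for Ccnl1 and 66.7% for Cdk9 in the main setting. With peaks of at least the median score it was 0.0% and 83.3%. With peaks within 2000 bp of a gene end it was 33.3% and -16.7%.

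The pattern of these 3 genes, a peak in a GV and in an embryonic library and in no MII or zygote library, was noticed in the data. It held for 5 family genes, the other 2 being Ccnj and the inhibitor gene Cdkn1b, and for 8.66% of all marked genes. In Cdkn1b the 2 sides are different sites: both GV libraries had a peak at chr6:134924157-134924359, 1267 bp from the 3′ end, and blastocyst 1 had one at chr6:134920745-134921086, 514 bp from the 5′ end.

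Between the late and the earlier libraries, Cdk17 was the 1 family gene called. Cdk17 is a kinase of the PCTAIRE group. It had 1 peak in each of the 4 late libraries and none in the 8 earlier ones, so the groups did not overlap (p = 0.00202, the smallest this design allows; adjusted p = 0.02 over 4269 genes, Fisher's exact test). The peaks fall in 1 site of 456 bp at chr10:93239389-93239844, with its midpoint 11478 bp from the end of the gene with the higher coordinate. The authors' enrichment was 6.42-fold in 8-cell 1, 4.44-fold in 8-cell 2, 14.6-fold in blastocyst 1 and 7.22-fold in blastocyst 2, and apart from blastocyst 1 these peaks stood in the lower part of their lists by q-value. The call held when each library was left out in turn (adjusted p between 0.0248 and 0.0385) but not with equal numbers of peaks per library (0.0609) or with peaks at or above the median enrichment of their own list (0.0856), and with peaks of at least the median score only 1 of the 4 late libraries kept a mark.

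Of the 17 family genes tested in that comparison, Cdk17 was called higher in late libraries, where 5.15% of all tested genes were, and none was called higher in earlier ones, where 4.97% were. With Cdk17, 5 of the 17 had an unadjusted p under 0.05 by the exact test (29.4%), a share near the 25.4% of all tested genes. The 4 not called are described for their values only. Ccne1 encodes cyclin E1, the partner of Cdk2 at the entry into S phase. It was marked in both 8-cell libraries and in blastocyst 2, and in no earlier library (adjusted p = 0.0715, Fisher's exact test). Its peaks lie at chr7:38098240-38098758, 515 bp from the 3′ end. Ccng1, a target of p53, was marked in 8-cell 2 and both blastocyst libraries and in no earlier one (adjusted p = 0.0715, exact). For both Ccne1 and Ccng1 the share of marked libraries, late minus earlier, was 75.0%. It fell to 0.0% with peaks at or above the median enrichment of their own list. With peaks of at least the median score it was 0.0% as well. Ccnl2 was marked in all 4 late libraries and in GV oocyte 2 of the 8 earlier ones (adjusted p = 0.057, exact).

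Ccne2, the gene of the second E-type cyclin, had the opposite sign without being called. It was marked in 1 of the 4 late libraries (8-cell 2) and in all 8 earlier ones, adjusted p = 0.0715 by Fisher's exact test. Its main site, chr4:11192683-11193007, was found in all 6 maternal libraries and in 2-cell 1, and in no later library. MII oocytes had further peaks beside it, at chr4:11193747-11193978 in both libraries and at chr4:11194861-11195060 in MII oocyte 2. The peaks of 2-cell 2 and 8-cell 2 were at another place, chr4:11204524-11204724 near the other end of the gene, where the neighbouring gene Ints8 overlaps, so they cannot be assigned to Ccne2 alone.

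With sites in place of gene bodies, a test added after the data were seen, 0 of 10 tested family sites were called higher in embryonic libraries and 2 in maternal ones, against 17.2% and 32.2% of the 3549 sites tested over the genome. One was the main Ccne2 site, with 1 of 6 embryonic and 6 of 6 maternal libraries (adjusted p = 0.0307, Fisher's exact test). The other was in Ccnb3, which encodes a B-type cyclin that mouse oocytes need for anaphase of the first meiotic division. Its site chrX:7008356-7009015 was likewise found in 1 of 6 embryonic libraries (8-cell 2) and 6 of 6 maternal ones (adjusted p = 0.0307, exact). Over the gene body Ccnb3 had 1 and 0 peaks in 2-cell embryos, 0 and 1 in 8-cell embryos and none in blastocysts, against 2 and 1 in GV oocytes, 3 and 3 in MII oocytes and 1 and 3 in zygotes. The Ccnb3 peaks were weak, with 1.56-fold to 5.71-fold enrichment at that site. Between late and earlier libraries 1 of 21 tested family sites, that of Cdk17, was called higher in late ones (adjusted p = 0.0221, exact) and 0 in earlier ones, against 4.84% and 4.28% of the 7658 sites tested.

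**Figure D5:**
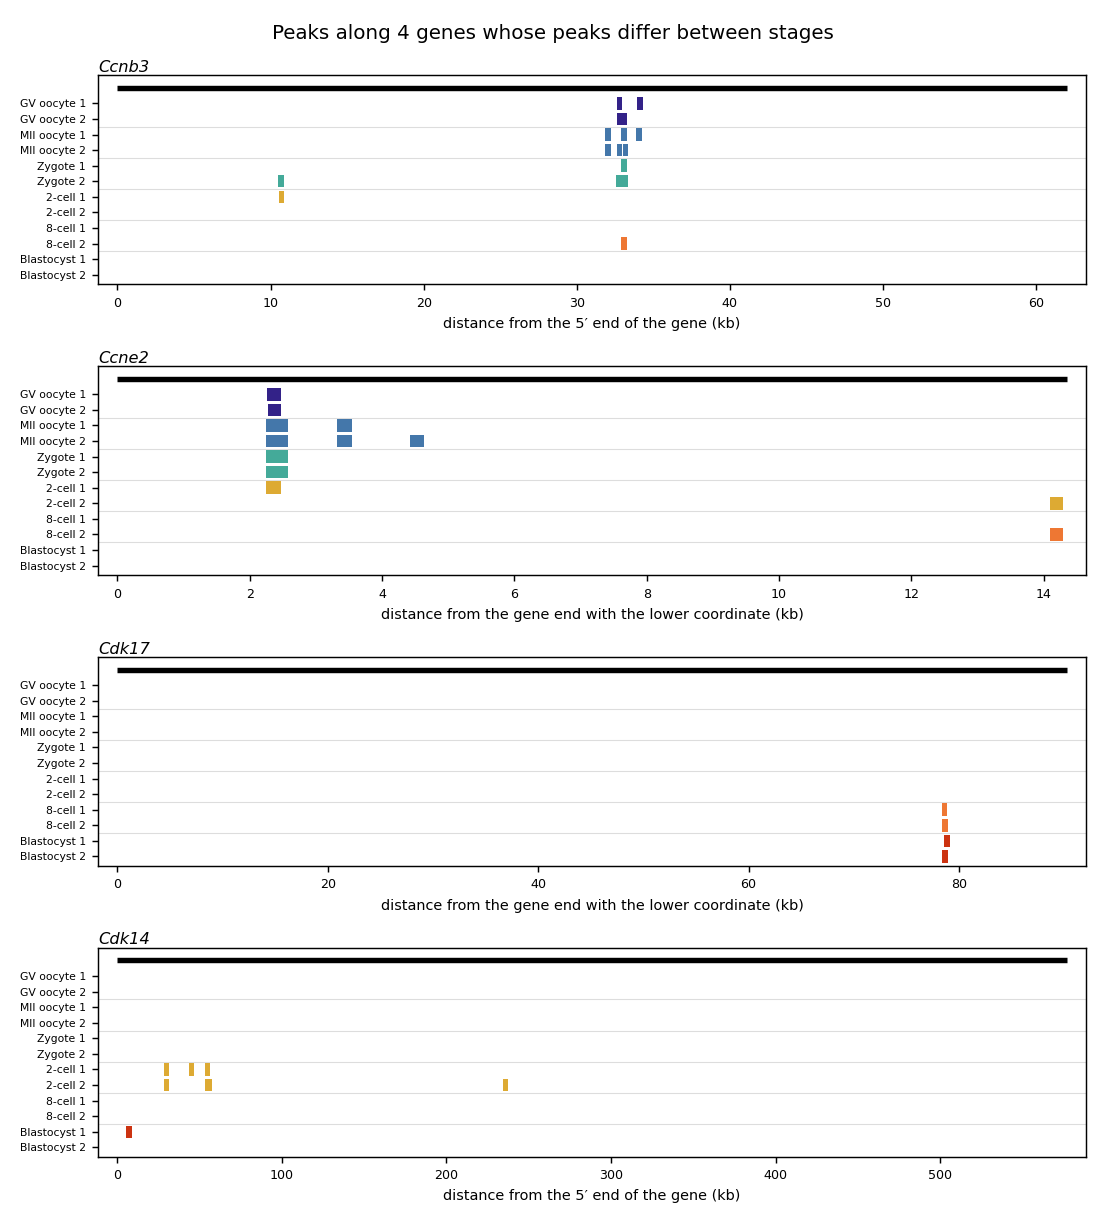
Peaks in each of the 12 libraries (rows, coloured by stage) along Ccnb3, Ccne2, Cdk17 and Cdk14, as distance in kb from the 5′ end of the gene or, where the strand was not at hand, from the end with the lower coordinate (black bar: gene body); peaks narrower than 0.6% of the gene length are drawn at that width. Ccnb3 and Ccne2 have bars in every maternal row and in some 2-cell and 8-cell rows, and Cdk17 has bars in the 4 late rows only. Most Cdk14 bars of the 2-cell rows lie 29748 to 55872 bp from the 5′ end of a gene of 576868 bp.

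Steps between consecutive stages rest on 2 libraries against 2, where an exact p cannot reach 0.05, so they were counted without a test. A gene was counted as gained when marked in both libraries of the later stage and in neither of the earlier one, and as lost in the reverse case. In MII against GV oocytes Ccnd3, the D-type cyclin gene with peaks, was gained, and 5 genes were lost: Ccnj, Ccnl1, Ccno (a cyclin of multiciliated cells), Cdk20 (a kinase of ciliary signalling) and Cdkn1b. Over all marked genes 3.33% were gained and 8.74% lost at this step. Ccno and Cdk20 had peaks in GV oocytes only, Ccno 1 in each library and Cdk20 1 and 2. Ccnd3 had 1 peak in each MII library, in zygote 2 and in 2-cell 1, all at chr17:47590153-47590486.

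In zygotes against MII oocytes no family gene was gained or lost, with 0.666% and 2.53% of all marked genes. In 2-cell embryos against zygotes Cdk14 was gained and none was lost, with 9.88% and 7.94% of all genes. This step turned on single libraries: 7 family genes were gained without 2-cell 1, and 5 were lost without zygote 1. Cdk14, a partner of cyclin Y in Wnt signalling, had 3 and 5 peaks in 2-cell embryos and a single one elsewhere, in blastocyst 1. The 2-cell peaks fall in 6 sites between 29748 and 235950 bp from the 5′ end of a gene of 576868 bp, and 2 of the sites were found in both libraries.

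In 8-cell against 2-cell embryos Ccne1, Ccnl2, Cdk17 and Cdk18 were gained and Cdk14 was lost, where 10.9% and 5.66% of all marked genes were. Cdk18, another PCTAIRE kinase, had 1 peak in each 8-cell library and none elsewhere, 252 bp from the 3′ end (chr1:132113694-132113904). In blastocysts against 8-cell embryos Ccnc, Ccni, Ccny, Cdk10 and Cdkn2c were gained and Cdk18 was lost, where 4.79% and 4.29% of all genes were. Ccnc encodes cyclin C of the Mediator kinase module, and both of its sites also touch the gene Tstd3. Cdk10 had a peak in 2-cell 2 and both blastocyst libraries, at chr8:123231812-123232223 close to the 3′ end.

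Cdkn2c, an Ink4 inhibitor of Cdk4 and Cdk6, was gained in blastocysts after having been marked before. It had 1 peak in each GV library, in MII oocyte 1 and in zygote 2, none in 2-cell or 8-cell embryos, and 2 and 1 in blastocysts. At its site next to the start (chr4:109666210-109666731), the one with the sequence above, 2 of 6 embryonic and 4 of 6 maternal libraries had a peak. Ccny, which encodes the membrane-bound cyclin Y, had peaks in GV oocyte 1, MII oocyte 2 and both blastocyst libraries. Ccni was marked in GV oocyte 2, MII oocyte 1, zygote 2 and both blastocyst libraries, each time at chr5:93182785-93183234, 1076 bp from the 3′ end.

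The remaining marked genes had peaks in few libraries. Cdk11b, the kinase of cyclins L, was the exception, with peaks in 10 libraries, all but 2-cell 1 and blastocyst 2, and up to 5 in one library. Cdk19, a Mediator kinase, was marked in 4 of 6 embryonic libraries and in no maternal one (unadjusted exact p = 0.0606). Its paralog Cdk8 was marked in MII oocyte 1, 8-cell 1 and blastocyst 1. Single libraries marked Cdk7 (blastocyst 2) and Ccnh (2-cell 1), the kinase and cyclin of TFIIH, and Ccnk (MII oocyte 1), the cyclin of Cdk12 and Cdk13.

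The same held for the core cell-cycle kinases. Cdk1, the kinase of entry into M phase, had 1 peak in MII oocyte 1 only. Cdk2 had 1 in 8-cell 2, where it overlaps Pmel, and Ccna2 1 in the same library, where it overlaps Exosc9. Ccnb1ip1, a factor of meiotic crossing-over, was marked in 2-cell 2 and 8-cell 2. The inhibitor gene Cdkn1a, a target of p53, had 2 peaks in blastocyst 2 only, and the imprinted Cdkn1c had 2 each in MII oocyte 1 and zygote 2. Cdk5, known for its role in neurons, and Cdk15 were marked in MII oocyte 1 and zygote 2. The Cdk15 peaks lie across the 3′ end of the gene, where a long noncoding RNA gene, Gm51625, overlaps. The merged site there (chr1:59352265-59352807) also holds 1 peak of each GV library, outside the gene body.

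Peaks away from both ends made up 70.0% of the family's peaks and 71.0% of those of all genes, among genes over 10 kb with a known strand. Of 243 family peaks in these genes, 44 (18.1%) had their midpoint within 2000 bp of the 3′ end and 29 (11.9%) within 2000 bp of the 5′ end, against 24.3% and 4.72% of the 61005 peaks of all such genes. The family peaks come from 20 genes and the same site is counted once per library, so the shares were not tested. Most of the 29 peaks near the 5′ end lay in Cdk12 (sites with 4 and 12 peaks) and Cdk13 (a site with 10). The larger 5′ share is thus mainly that of these genes and not of the family at large. Counted as sites in family genes over 10 kb, 8 of 50 lay near the 3′ end and 5 near the 5′ end. The share of sites over all genes was not counted. In shorter genes, where the windows cover more of the gene, 8 of 14 lay near the 3′ end and 2 near the 5′ end.

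A list of 50 other cell-cycle regulators was read in the same way. Of these, 39 had a peak, 2 of them in all 12 libraries (Foxm1 and Mastl), and 13 could be tested between phases. Of the 13, 2 were called higher in embryonic libraries and 3 in maternal ones, where 21.6% and 28.0% of all tested genes were. Cdc14b was marked in 6 of 6 embryonic and 0 of 6 maternal libraries and Wee1, the kinase that inhibits Cdk1, in 6 of 6 and 1 of 6. Mos, Wee2 and Fbxo43, which act in the meiotic arrest of oocytes, were each marked in 0 of 6 embryonic and 6 of 6 maternal libraries (adjusted p = 0.00963 for all but Wee1, with 0.0306, Fisher's exact test). The median difference over the 13 was 1.0 library. Between late and earlier libraries 17 were tested and 0 called by Fisher's exact test. Over all tested genes 5.15% were called higher in late libraries and 4.97% in earlier ones. Of the 17, 1 (E2f7) had an unadjusted p under 0.05, against 25.4% of all tested genes.

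Marker genes were read in the same way, a peak being a sign of a transcript and no peak being none of its absence. Of 12 oocyte markers 5 had a peak, with 3 to 5 per maternal library and 0 to 2 per embryonic one, and Zp1, Zp2, Zp3, Figla, Ddx4, Oosp1 and Zar1 had none anywhere. Of 12 markers of cumulus and granulosa cells 5 had a peak (Amhr2, Cyp19a1, Has2, Inhba and Nr5a2), 1 to 3 per library. Amh, Foxl2, Fshr, Fst, Hsd17b1, Inha and Ptx3 had none anywhere. Of 10 markers of the 2-cell embryo 9 were found and 7 had a peak, with 5 and 4 in 2-cell libraries and 0 to 5 in the others. All 6 markers of the inner cell mass had a peak, with 5 in each late library and 2 to 4 in each earlier one. Of 8 trophectoderm markers 5 were marked in each late library and 2 in each earlier one. The part of such cells in the family's peaks was not tested.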

How the data were processed

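Per the submitters' processing notes, reads were handled with FastQC 0.11.8, cutadapt 1.8.1, HISAT2 2.1.0, SAMtools 1.9, bedtools 2.28.0, deepTools 3.2.0 and MACS2 2.1.2 on mm10 (settings: not given in the sources used here). For each summit the deposited lists hold a score, which is the −log10 q-value times 10 without decimals, the fold enrichment (a ratio) and the −log10 of p and q. The lowest deposited −log10 q-value was 1.3 to 1.33 per list. The 143579 summits were collapsed to 113764 peaks, 1 per interval with the best q-value, of 200 to 3754 bp. Depth is unknown, and a list can grow with it.

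Genes came from a RefSeq table of GRCm38.p6 without exons. Strand was taken from RefSeq start windows, which hold 42 of the 52 genes. Cdk3 matches the name rule but is not protein-coding in that table. Calls use scipy 1.17.1 in Python 3.11.15 and adjusted p at 0.05. The code was also run on simulated marks with libraries drawn independently, which does not cover likeness between replicates of a stage. Genes given with values in every library were those called, gained, lost, marked in all libraries or with an unadjusted p under 0.05. The members and gene lists were chosen with earlier results of these data known. Alternatives changed the peak threshold, the overlap rule, the position in the gene, shared peaks, stages, adjustment and single libraries. Fisher's exact test compares counts of marked libraries and does not estimate the spread between them. It counts each library as an independent unit, so replicates of a stage enter as separate units of their group. Likeness between replicates of a stage is not allowed for in any p-value given here, that of Cdk17 included. The p-values therefore describe these libraries and not stages in general. No genome sequence was used here, so motifs at most sites were not analysed here.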

Additional observations from a re-analysis of the deposited data

How the results depend on the processing

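Between phases, the 0 family genes called became 1 with the 2-cell libraries left out (Cdk17), 1 with peaks that touch 1 protein-coding gene (Ccne2), 2 with equal numbers of peaks per library, 2 with peaks of at least the median score (Cdk9, Ccne2) and 2 with sites, an alternative chosen after seeing the data; leaving out 1 library gave 0 to 4. Single genes were called without GV oocyte 2 (Cdk9), 2-cell 2 (Cdk17), 8-cell 2 (Ccnb3) and blastocyst 2 (Cdk19). Between late and earlier libraries, the 1 call became 0 near gene ends and 0 with the score threshold, and 1 to 2 without 1 library: Ccnl2 joined without GV oocyte 2, Ccng1 without 8-cell 1, Ccne2 without 8-cell 2 and Ccne1 without blastocyst 1. With equal numbers of peaks Ccne2 took the place of Cdk17 (adjusted p = 0.0173, Fisher's exact test), and with peaks at or above their own list's median enrichment Ccnt2 did. Under that enrichment threshold, and under the score threshold, the difference of Ccne1 and of Ccng1 was 0.0%. The 18 gains and losses became 5 with the score threshold and 18 to 28 without 1 library. Per step without 1 library, gains ran from 1 to 7 (MII oocytes, highest without MII oocyte 2), 1 to 7 (2-cell, without 2-cell 1), 4 to 8 (8-cell, without 2-cell 2 or 8-cell 1) and 5 to 7 (blastocyst), and were 0 in zygotes; losses ran from 5 to 7 (MII oocytes), 0 to 3 (zygotes, without MII oocyte 2), 0 to 5 (2-cell, without zygote 1), 1 to 3 (8-cell, without either 2-cell library) and 1 to 7 (blastocyst, without 8-cell 1). Marked genes per library, embryonic minus maternal, differed by 2.67, and by 1.4 to 3.87 without 1 library, 4.17 with equal numbers of peaks and -1.0, the other direction, with the score threshold. The score threshold, the median of all lists together, lies above the median of every embryonic list and below that of every maternal one. The causes were not tested.

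Over all genes, the 498 embryonic calls became 245 when adjusted over all marked genes, 225 with the enrichment threshold, 321 near gene ends and 190 with the score threshold (501 to 815 without 1 library, highest without 2-cell 1). The 647 maternal calls became 274, 344 and 289 under the first 3. The 220 late calls became 126 with the enrichment and 120 with the score threshold, and the 212 earlier ones 121 with the enrichment threshold and 32 near gene ends. Embryonic calls were 43.5% of those between phases, and 21.1% with the score threshold, which cuts embryonic lists more. Late calls were 50.9% of those between late and earlier libraries, and 82.6% near gene ends. Replicate numbers did not pair the samples: over 15 pairs of stages the correlation of replicate differences ran from -0.165 to 0.0249. With a replicate block the calls were 0 family genes between phases (498 and 647 of all genes) and 1, Cdk17, between late and earlier libraries (220 and 212).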
